A study of Mus musculus with 6 samples.

Results

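The genes described here encode the serine proteases and the peroxidase of the neutrophil's azurophil (primary) granule, with the proteins that inhibit them, pack them or surround them in the granule membrane. They are Elane, Mpo, Ctsg, Prtn3, Ms4a3, Cd63, Serpinb1a, Slpi and Srgn, chosen by name with earlier results of these data known. All 9 were found among the 54532 genes of the expression table. RNA was sequenced from bone marrow neutrophils of C57BL/6J mice, 3 libraries from wild-type (WT) animals and 3 from animals lacking progranulin (PGRN KO), the secreted growth factor encoded by Grn. Every library, those titled as controls included, came from cells pre-cultured for 2 h and then exposed to the yeast Candida albicans for 6 h. The labels give 1 fungal cell per neutrophil, whereas the study's text gives another ratio. There was no unchallenged group, so levels before the fungus was added were not analysed here.

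The cells had been enriched from marrow with anti-Ly-6G magnetic beads. The PGRN KO mice and the WT mice came from different suppliers, and neither the number of animals behind a culture nor their age was given in the sources used here. P-values therefore measure the spread between these libraries, which may be technical, and supplier and genotype cannot be told apart. The libraries, numbered as in their titles (WT 1 to 3 and PGRN KO 4 to 6), held 17087344 to 18821091 fragments on genes. Grn itself lay between 161 and 168 FPKM (fragments per kilobase, scaled to library size) in WT libraries and between 0.206 and 0.747 FPKM in PGRN KO libraries. All 8 neutrophil markers examined were present, and their summed level was 49151 to 52608 FPKM in WT and 50477 to 59059 FPKM in PGRN KO libraries. By limma 0 of them were called higher (1 at an unadjusted p under 0.05, and 3 by voom, limma's count-based fit) and 2 lower, Mmp8 by a log2 difference of -0.45 and Csf3r by -0.16, while S100a9 (0.21) and S100a8 (-0.09), the most abundant, were not called. Over all genes tested, limma called 7.94% higher and 9.95% lower. Quantile normalization and plain fragment totals left 0 of these markers lower.

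Azurophil granules are the first granules a developing neutrophil makes. Their proteases and myeloperoxidase are transcribed mainly at the promyelocyte stage in the bone marrow, and the mature cell carries the finished proteins while its messages have largely decayed. The granule discharges into the phagosome that holds a swallowed microbe, where the peroxidase makes hypochlorous acid and the proteases cut microbial proteins. The same enzymes can damage host tissue and are held in check by serpins and by small inhibitors such as SLPI. PGRN is itself a substrate of elastase and proteinase 3, and SLPI can shield it from that cleavage.

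The 4 enzyme genes showed the largest differences between genotypes of the 9, so the 250 bases before their RefSeq start sites are shown (GRCm38.p6, read 5′ to 3′ on the gene's strand). The windows are chr10:79886062-79886311 on the plus strand for Elane, chr10:79879417-79879666 on the plus strand for Prtn3, chr11:87793534-87793783 on the plus strand for Mpo and chr14:56102575-56102824 on the minus strand for Ctsg. Capitals mark every match, on either strand, to the core letters of 6 motifs, which were GAGGAA for PU.1, TTGCNNAA for C/EBP, TAACNG for MYB, TGTGGT for RUNX, AGATAA for GATA and TATAAA for the TATA box.
Elane: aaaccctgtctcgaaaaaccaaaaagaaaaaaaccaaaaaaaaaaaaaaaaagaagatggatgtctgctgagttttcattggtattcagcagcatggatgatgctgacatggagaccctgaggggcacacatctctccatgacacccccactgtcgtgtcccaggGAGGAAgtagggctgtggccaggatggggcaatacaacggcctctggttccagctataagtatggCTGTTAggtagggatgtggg
Prtn3: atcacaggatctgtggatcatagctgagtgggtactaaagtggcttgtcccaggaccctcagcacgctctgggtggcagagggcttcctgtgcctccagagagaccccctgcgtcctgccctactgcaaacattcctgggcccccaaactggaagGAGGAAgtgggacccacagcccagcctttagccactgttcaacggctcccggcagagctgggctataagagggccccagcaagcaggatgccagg
Mpo: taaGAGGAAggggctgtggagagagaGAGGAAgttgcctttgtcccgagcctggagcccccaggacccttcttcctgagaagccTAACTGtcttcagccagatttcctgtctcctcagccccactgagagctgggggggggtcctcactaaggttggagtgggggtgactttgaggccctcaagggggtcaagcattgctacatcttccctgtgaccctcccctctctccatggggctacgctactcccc
Ctsg: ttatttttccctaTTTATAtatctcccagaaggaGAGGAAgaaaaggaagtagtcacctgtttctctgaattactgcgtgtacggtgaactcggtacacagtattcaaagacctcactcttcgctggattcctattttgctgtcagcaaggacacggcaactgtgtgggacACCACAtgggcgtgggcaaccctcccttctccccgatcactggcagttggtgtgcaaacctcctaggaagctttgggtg

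All 4 windows held the PU.1 letters GAGGAA. Its first base lay 85 bases before the start in Elane, 95 in Prtn3, 216 in Ctsg, and 247 and 224 in Mpo, where the letters occurred at both places. The MYB letters were found in Elane (20 bases before the start, on the opposite strand) and in Mpo (166 bases before it). Ctsg had the RUNX letters 79 bases and the TATA letters 237 bases before the start, both on the opposite strand. No match overlapped another in these windows. None of the 4 held the C/EBP or GATA letters. RefSeq windows, each with the 50 bases after the start added, were at hand for 8 of the 9 genes (9 windows, 2 of them for Srgn), and Serpinb1a had none. GAGGAA was present in 6 of the 9, against 28.3% of 32851 mouse promoters of that length. The 6 were those of the 4 enzymes, of Cd63, and of Ms4a3, where the letters began 35 bases after the start. The MYB, RUNX, TATA and C/EBP letters were each present in 2 of the 9 windows, and the GATA letters in 0. The corresponding shares of mouse promoters were 23.3% for the MYB letters, 16.8% for RUNX, 13.6% for TATA, 11.2% for GATA and 10.8% for C/EBP. The deposited gene model of Elane and that of Mpo begin inside the printed window, and that of Prtn3 begins upstream of it.

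PGRN KO neutrophils had higher levels of all 4 granule enzymes than WT neutrophils after C. albicans challenge, between 4.30-fold for Elane and 7.61-fold for Ctsg. Ms4a3 was 2.29-fold higher and Serpinb1a 1.19-fold higher, whereas Slpi, Srgn and Cd63 were lower by 18.8% to 21.9%. At an adjusted p under 0.05 (limma on log2(FPKM + 1), Benjamini-Hochberg over 14807 genes tested), 6 of the 9 genes were called higher, beside 7.94% of all genes tested. The other 3 were called lower, beside 9.95% of all genes tested. Because the 9 were chosen with earlier results known, these shares give a scale and are no test of the set. No gene of the 9 overlapped between genotypes. Over all genes tested, every PGRN KO library lay above every WT library for 18.1% and below every WT library for 19.6%. The libraries are of bulk RNA, so more cells carrying a transcript and more transcript per cell cannot be told apart. Over all 14807 genes tested, 74 rose by 2 or more on the log2 scale, and most of them were immunoglobulin genes. Among all genes tested Ctsg came at place 27, Prtn3 at 55, Mpo at 56, Elane at 70 and Ms4a3 at 142. With immunoglobulin gene segments set aside, 5 genes rose that far, namely the 4 enzymes and the pseudogene Rpl30-ps10, whose 2.10 rested on PGRN KO libraries between 32.1 and 56.6 FPKM. In that order Ctsg came at place 1, Prtn3 at 2, Mpo at 3, Elane at 5 and Ms4a3 at 25. These places are on the log2(FPKM + 1) scale, where the added 1 understates changes of low genes. The basophil gene Mcpt8, at a mean of 0.51 FPKM in WT and 3.39 FPKM in PGRN KO libraries, thus reached 1.54. The places are therefore not an order of fold change.

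**Figure D1:**
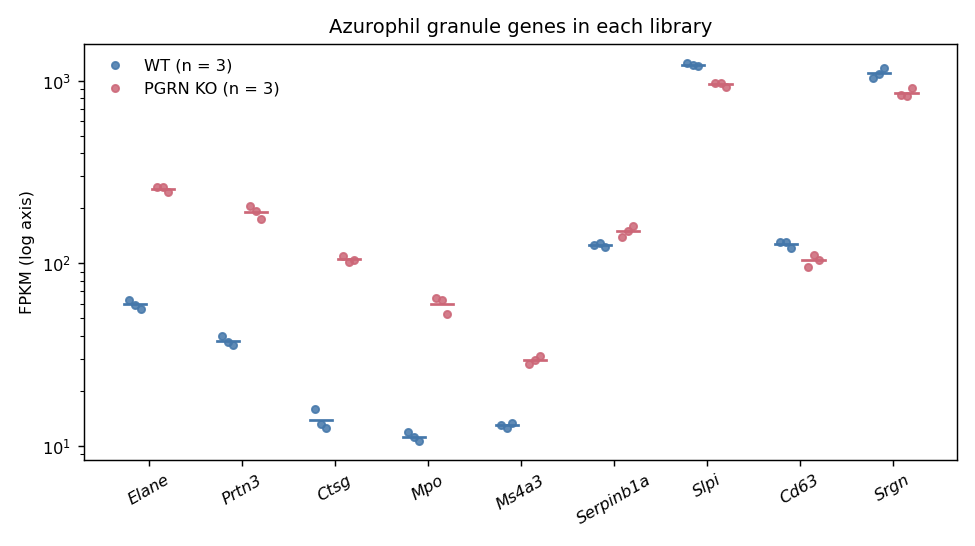
FPKM of each of the 9 genes (log axis) in the 3 WT libraries (blue) and the 3 PGRN KO libraries (red); each point is a library and each short line a group mean. The enzymes Elane, Prtn3, Ctsg and Mpo and the membrane protein gene Ms4a3 stand far apart between genotypes, while Serpinb1a, Slpi, Cd63 and Srgn differ by 1.19-fold to 1.28-fold in one direction or the other.

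Elane encodes neutrophil elastase, a serine protease that cuts bacterial and fungal surface proteins and elastin. It stands on chromosome 10 (79886247 to 79888215, plus strand, mm10/GRCm38, as are all gene positions here). Its level was 62.9, 59.2 and 56.4 FPKM in WT 1, 2 and 3, and 262.9, 260.1 and 245.5 FPKM in PGRN KO 4, 5 and 6. The lowest PGRN KO library was thus 3.90-fold above the highest WT library. The group means were 59.5 ± 3.27 and 256 ± 9.32 FPKM (SD, n = 3 each), resting on 2974 and 14014 fragments. On the log2 scale Elane rose by 2.09 (SE 0.05, 95% interval 1.96 to 2.22, limma adjusted p = 1.2e-05).

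Prtn3 encodes proteinase 3, the protease closest to elastase, and lies 3.07 kb upstream of Elane on the same strand (chromosome 10, 79874476 to 79883174). The 3 WT libraries held 40.1, 36.9 and 35.8 FPKM and the 3 PGRN KO libraries 205, 194 and 175 FPKM. Both groups were tight and widely separated, with CVs of 5.99% and 7.88%. The mean went from 37.6 ± 2.25 to 192 ± 15.1 FPKM, a 5.09-fold difference (log2 2.32, SE 0.07, limma adjusted p = 1.84e-05). The 5′ end of Prtn3 overlaps Plppr3 on the opposite strand, and the library kit was not stated to keep strand. Plppr3, a membrane phosphatase-related gene, had 69 to 95 fragments in WT and 148 to 200 in PGRN KO libraries, against 1062 to 1181 and 5969 to 6342 for Prtn3.

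Ctsg encodes cathepsin G, another serine protease of the granule, on the minus strand of chromosome 14 (56099881 to 56102574). It was measured at 15.8, 13.1 and 12.5 FPKM in WT 1, 2 and 3. In PGRN KO 4, 5 and 6 it reached 109.9, 102.0 and 104.2 FPKM. WT 1 stood above the other WT libraries, and this group's CV (12.7%) stood above the 6.43% that counting alone would give for its 726 WT fragments. Even so, the lowest PGRN KO library was 6.44-fold above WT 1. The means were 13.8 ± 1.76 and 105 ± 4.06 FPKM (7.61-fold, log2 2.85, SE 0.09, limma adjusted p = 1.77e-05).

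Mpo encodes myeloperoxidase, the heme enzyme that gives pus its green colour, on the plus strand of chromosome 11 (87793581 to 87804413). WT 1, 2 and 3 held 11.9, 11.1 and 10.6 FPKM, and PGRN KO 4, 5 and 6 held 64.3, 62.8 and 52.5 FPKM. PGRN KO 6 was lower than the other PGRN KO libraries but still 4.42-fold above the highest WT library. The means of 11.2 ± 0.63 and 59.9 ± 6.43 FPKM differed 5.34-fold (log2 2.31, SE 0.09, limma adjusted p = 4.71e-05). An antisense transcript, Gm11505, lies within Mpo and had 0 fragments in all 6 libraries.

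The enzymes together took a small part of each library. They accounted for 0.0182%, 0.0168% and 0.0161% of fragments in WT 1, 2 and 3, and for 0.0990%, 0.0965% and 0.0870% in PGRN KO 4, 5 and 6. The exact 95% binomial intervals, which cover counting error only, ran from 0.0155% to 0.0189% over the WT libraries and from 0.0856% to 0.1005% over the PGRN KO libraries. Their summed level was 115 to 131 FPKM in WT and 578 to 642 FPKM in PGRN KO libraries. All 4 enzymes were highest in WT 1 and lowest in WT 3 among WT libraries, and Elane, Prtn3 and Mpo were highest in PGRN KO 4 and lowest in PGRN KO 6.

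Measured against each other, the enzymes differed between genotypes most where Ctsg was one of the pair, although the exact permutation test used cannot go below 0.05 with 3 libraries a genotype. Within a library, the ratio of 2 genes does not depend on how libraries are scaled, so the 6 pairs were compared as log2 ratios of fragments per base. Elane over Ctsg was 1.99, 2.17 and 2.17 in WT and 1.26, 1.35 and 1.24 in PGRN KO libraries, a difference of -0.83. Ctsg over Prtn3 went from -1.34, -1.49 and -1.51 to -0.90, -0.93 and -0.75, a difference of 0.59. Mpo over Ctsg differed by -0.52, Elane over Mpo by -0.31 and Elane over Prtn3 by -0.24. In these 5 pairs no WT library overlapped a PGRN KO library, which gives p = 0.1 in an exact two-sided permutation test, the smallest p that 3 against 3 allows (0.12 adjusted over the 6 pairs). Mpo over Prtn3 overlapped, at -1.76, -1.73 and -1.75 in WT and -1.67, -1.63 and -1.74 in PGRN KO libraries (difference 0.07, exact permutation p = 0.2). The very close WT values of Elane over Mpo, with an SD of 0.0023, were below the 0.07 that counting error alone gives, so the replicate spread understates the error there.

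**Figure D2:**
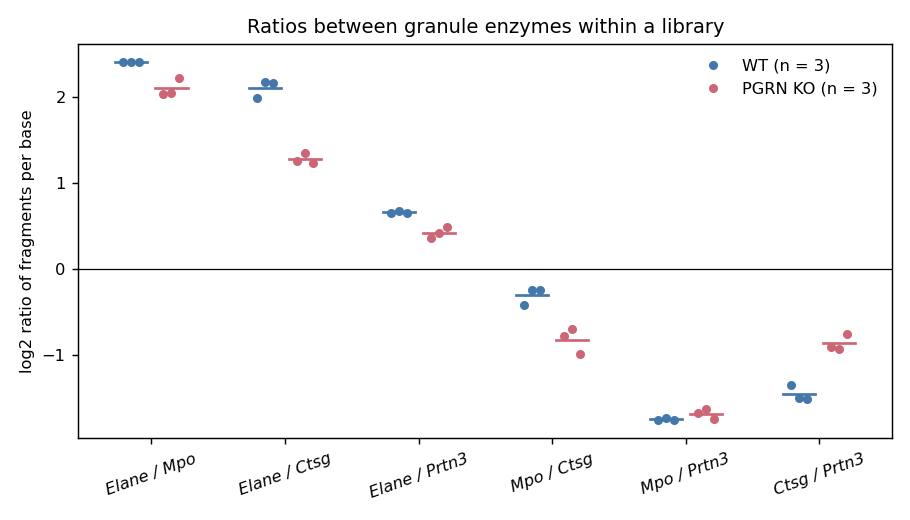
Log2 ratio of fragments per base for each pair of the 4 enzymes, with 1 point per library, WT in blue and PGRN KO in red, and a line at each group mean. Ratios with Ctsg differ most between genotypes (by -0.83, -0.52 and 0.59), and Mpo over Prtn3 overlaps.

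The makeup of the enzyme transcripts is given as each gene's share of their summed FPKM. Elane made up 48.1% to 49.2% of it in WT and 40.9% to 42.5% in PGRN KO libraries. Ctsg went from between 10.9% and 12.1% to between 16.5% and 18.0%. Prtn3 stayed close to its WT share, which lay between 30.7% and 31.0%, and ranged from 30.4% to 31.9% in PGRN KO libraries, and Mpo ran from 9.08% to 9.25% in WT and from 9.09% to 10.1% in PGRN KO libraries.

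The protease inhibitors of the set moved in opposite directions. Serpinb1a encodes the cytosolic serpin that inactivates elastase, proteinase 3 and cathepsin G when they leak from granules, and lies on the minus strand of chromosome 13 (32842092 to 32851185). It was measured at 125.9, 128.7 and 123.1 FPKM in WT 1, 2 and 3, and at 139.2, 150.1 and 160.3 FPKM in PGRN KO 4, 5 and 6. All PGRN KO libraries lay above all WT libraries, the closest pair by 1.08-fold. The log2 difference was 0.25 (SE 0.06, 95% interval 0.11 to 0.39, limma adjusted p = 0.0295). The call was lost when any library but PGRN KO 4 was left out (adjusted p 0.0537 to 0.0983), and the direction was kept.

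Slpi encodes secretory leukocyte protease inhibitor, which blocks elastase and cathepsin G. It lies on the minus strand of chromosome 2 (164354070 to 164389095). It had the highest level of the 9 genes, at 1250.4, 1211 and 1203 FPKM in WT 1, 2 and 3 against 966, 976 and 919 FPKM in PGRN KO 4, 5 and 6. Every PGRN KO library was below every WT library. Slpi fell by 0.36 on the log2 scale (SE 0.04, 95% interval of the difference -0.46 to -0.26, limma adjusted p = 0.00302), and quantile normalization gave -0.20 (adjusted p = 0.00906). The microRNA gene Mir7678 lies inside Slpi on the same strand and was assigned 104 to 180 fragments a library, against 20341 to 25061 for Slpi, so reads of one could be counted with the other.

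Srgn encodes serglycin, the proteoglycan core on which positively charged granule proteins are packed, elastase in particular, and lies on the minus strand of chromosome 10 (62493833 to 62527451). WT 1, 2 and 3 held 1029.6, 1085 and 1174 FPKM and PGRN KO 4, 5 and 6 held 839, 826 and 916 FPKM. The groups did not overlap, although the gap between PGRN KO 6 and WT 1 was narrower than the spread of the WT libraries. Srgn fell by 0.35 on the log2 scale (SE 0.07, limma adjusted p = 0.0142). The call was lost without WT 2 (adjusted p = 0.061) and without PGRN KO 5 (adjusted p = 0.0651), and under quantile normalization, which gave -0.20 (adjusted p = 0.0715).

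Cd63 encodes a tetraspanin of the azurophil granule membrane that is also found on lysosomes of many cells and takes part in sorting elastase to the granule. It lies on the plus strand of chromosome 10 (128900989 to 128912822). It was at 130.9, 131.3 and 121.3 FPKM in WT 1, 2 and 3 and at 95.2, 111.6 and 104.7 FPKM in PGRN KO 4, 5 and 6. PGRN KO 4 was the lowest library and the groups did not overlap. Cd63 fell by 0.30 on the log2 scale (SE 0.07, limma adjusted p = 0.0259). The call was lost without WT 1 (0.0889), without WT 2 (0.0991) or without PGRN KO 6 (0.0645), and when libraries were scaled by their plain fragment totals (difference -0.18, adjusted p = 0.12) or quantile normalized (-0.20, adjusted p = 0.0998).

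Ms4a3 encodes a membrane-spanning protein whose expression marks granulocyte and monocyte progenitors. It lies on the minus strand of chromosome 19 (11629496 to 11640851). Its level was 13, 12.5 and 13.3 FPKM in WT 1, 2 and 3, and 28.2, 29.6 and 31.2 FPKM in PGRN KO 4, 5 and 6. The lowest PGRN KO library was 2.12-fold above the highest WT library. Ms4a3 rose by 1.14 on the log2 scale (SE 0.05, 95% interval 1.01 to 1.26, limma adjusted p = 0.000105), less than any of the 4 enzymes. Its highest PGRN KO library was PGRN KO 6, the library lowest for Elane, Prtn3 and Mpo.

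**Figure D3:**
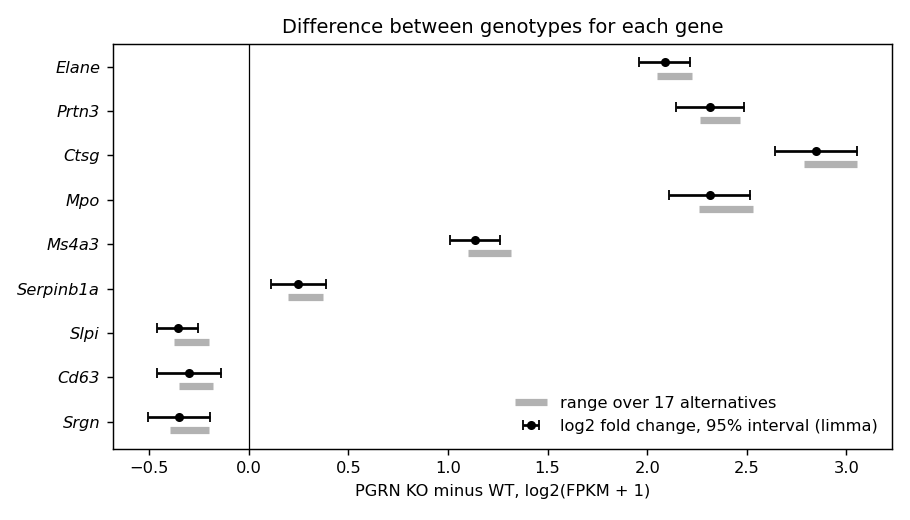
Difference between PGRN KO and WT libraries on the log2(FPKM + 1) scale for each gene (points), with its 95% interval from limma (black bars) and the range of the estimate over 17 alternative settings (grey bars). All 9 intervals and all 9 ranges stay on one side of 0, from 2.85 for Ctsg to -0.36 for Slpi. Settings that change only the gene filter or the moderation leave the estimate as it is, so they cannot widen a range.

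The order of the 9 genes by FPKM, a level per length, changed with the enzymes. In WT libraries it ran Slpi, Srgn, Cd63, Serpinb1a, Elane, Prtn3, Ctsg, Ms4a3, Mpo, in which Cd63 and Serpinb1a overlapped, as did Ctsg and Ms4a3. In PGRN KO libraries it ran Slpi, Srgn, Elane, Prtn3, Serpinb1a, Ctsg, Cd63, Mpo, Ms4a3, and among neighbours Ctsg and Cd63 alone overlapped. Elane moved from place 817 to place 180 among the 14807 genes tested, and Ctsg from place 2790 to place 454. The summed level of all 9 genes lay at 2681 to 2751 FPKM in WT and 2709 to 2712 FPKM in PGRN KO libraries, ranges in which the higher levels of the enzymes stood beside the lower levels of Slpi and Srgn.

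Other genes of the azurophil granule and its membrane were called in both directions. Of 13 tested, limma called 3 higher and 6 lower, beside 7.94% and 9.95% of all genes tested, but 3 higher and 2 lower by voom and with plain fragment totals, so the balance turned with the scaling. Their median log2 difference was -0.19, where the median of all genes tested was 0.0026. The 3 were Prss57 (1.12, adjusted p = 0.000507), which encodes the fourth neutrophil serine protease, Arsb (0.49), a lysosomal sulfatase, and Man2b1 (0.26), a lysosomal mannosidase. Prss57 was at 1.20, 1.54 and 1.60 FPKM in WT and at 4.22, 4.42 and 4.28 FPKM in PGRN KO libraries, well below the other proteases. The deleted Grn is itself on this list (-6.91) and counts among the 6, as does the lysosomal membrane gene Cd68 (-0.47, adjusted p = 0.00344). Of the 2 most abundant, the lysosomal protease gene Ctsd fell by 0.21 on the log2 scale, while lysozyme (Lyz2) stood at 1784 and 1800.3 FPKM in WT and PGRN KO and was not called (0.01, adjusted p = 0.959).

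Genes whose products activate, sort or release the granule proteases were called in both directions. Of 16 tested, limma called 1 higher and 3 lower, beside 7.94% and 9.95% of all genes tested, the median being -0.06. By voom the counts were 5 and 1 and with plain fragment totals 3 and 1, so the direction of the balance turned with the scaling. Slc37a4, the glucose-6-phosphate transporter of the endoplasmic reticulum, rose by 0.36. Stx11, a syntaxin of granule exocytosis, fell by 0.37, Ap3d1, a subunit of the adaptor that sorts elastase, by 0.22, and the chaperone gene Calr by 0.21, each on the log2 scale. Stx11 and Calr were also the 2 most abundant of the list. Ctsc encodes the dipeptidase that activates all the granule serine proteases, and its level was 17.8 FPKM in WT and 15.4 FPKM in PGRN KO libraries (-0.20, adjusted p = 0.13, not called).

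Among 14 other serpins and protease inhibitors tested, limma called 5 higher and 0 lower (2 lower at an unadjusted p under 0.05, and 0 by voom), and the median was 0.19. The shares called over all genes tested were 7.94% higher and 9.95% lower. Cst7, the cystatin that restrains cathepsin C, rose by 0.71 (33.9 to 56.0 FPKM, adjusted p = 0.000511). The Kunitz-type inhibitor gene Spint2 rose by 0.63 and Serpinb2 by 0.42. The most abundant members, Wfdc21 and Cst3, rose by 0.34 and 0.19. The paralogs of Serpinb1a, with which reads could be shared, were near absent, Serpinb1b having 1 fragment over all libraries and Serpinb1c none.

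Transcription factors that act in promyelocytes gave a mixed picture, 3 of 13 tested being called higher and 2 lower (7 and 2 by voom) around a median of 0.09. Of all genes tested, 7.94% were called higher and 9.95% lower. Myb rose by 0.40 (2.10 to 3.10 FPKM), Gfi1 by 0.27 and Cebpd by 0.26 on the log2 scale. Cebpa fell by 0.43 (12.6 to 9.13 FPKM) and Irf8 by 0.39. Cebpb and Spi1, the gene of PU.1, were the most abundant and were not called (-0.29 and -0.18, adjusted p = 0.11 and 0.169).

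Genes of neighbouring stages of the lineage were read the same way, beside 7.94% of all genes tested called higher and 9.95% called lower. Among 13 other early granulocyte genes limma called 5 higher and 2 lower, around a median of 0.09. Nkg7 rose by 1.31, Kit by 0.37, Clec5a by 0.31 and the abundant Cd177 by 0.23, while Cd93 fell by 0.67 and Gstm1 by 0.32, and Igsf6, also abundant, was not called (0.09). Of 17 genes of the secondary and tertiary granules, which are made after the azurophil granules, limma called 4 higher and 3 lower (voom 10 and 3), around a median of 0.07. Olfm4 fell by 1.11, Slc11a1 by 0.48 and Mmp8 by 0.45, and Lrg1 rose by 0.42 and Mmp9 by 0.25. Ngp and Lcn2, the most abundant, were not called (0.07 and -0.10).

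Most genes of dividing cells rose. Of 18 tested, limma called 13 higher, beside 7.94% of all genes tested, and 0 lower (0 lower at an unadjusted p under 0.05 and by voom), with a median of 0.38 and a summed level of 308 to 318 FPKM in WT against 381 to 393 FPKM in PGRN KO libraries. The replication gene Mcm6 rose by 0.57, Stmn1 by 0.54, Top2a by 0.51, Mki67 by 0.51 and Birc5 by 0.49. The abundant Ccnb2 rose by 0.21 and Pcna was not called (0.14), nor were Aurkb, Plk1, Ccnb1 and Cdc20 (0.22, 0.21, 0.13 and -0.03). These differences were smaller than those of the 4 enzymes, and their part in the enzymes' difference was not tested.

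**Figure D4:**
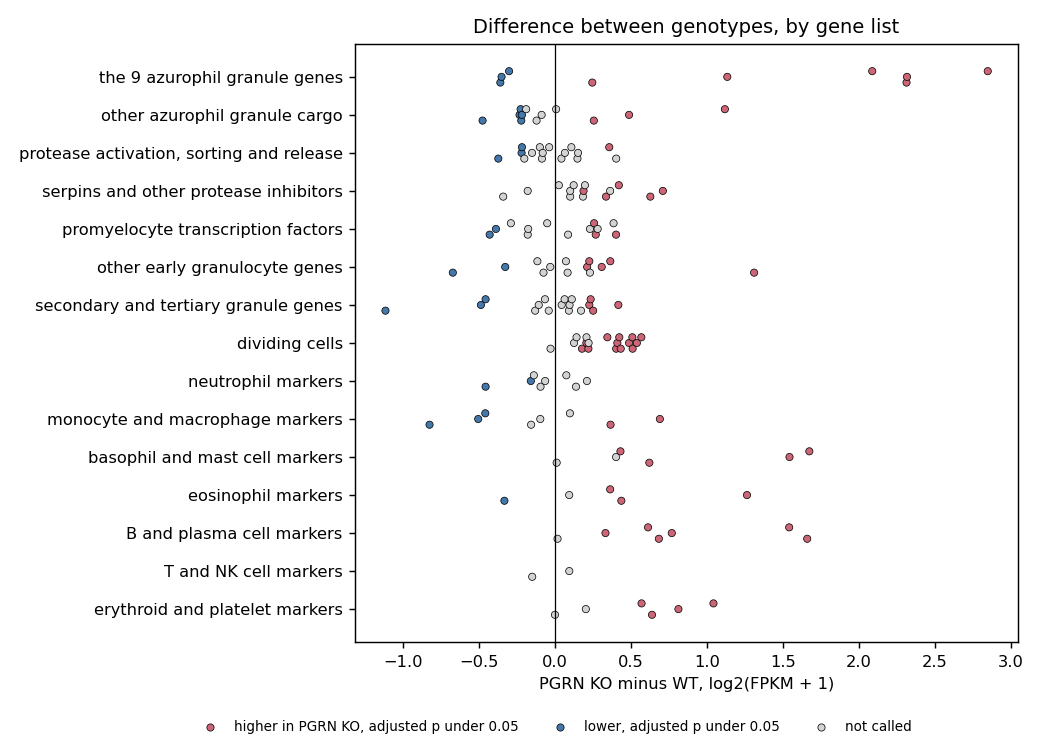
Log2 difference between PGRN KO and WT libraries for each tested gene of each list (1 point per gene; red and blue, higher and lower at adjusted p under 0.05; grey, not called; the targeted Grn is left out). The 4 enzymes lie at 2.09 to 2.85, to the right of every gene of the other lists, the highest of which is Prss34 at 1.67. Adding 1 to FPKM shrinks differences of low genes, so the order here need not be that of fold change. Mcpt8 (mean 0.51 FPKM in WT and 3.39 FPKM in PGRN KO libraries) lies at 1.54, and Fcer1a (0.06 and 0.63 FPKM) at 0.62.

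Markers of several other marrow cells also differed, and their part in the enzymes' difference was not tested. The counts below stand beside 7.94% of all genes tested called higher and 9.95% called lower. For basophils and mast cells, 4 of 6 tested markers were called higher, with Prss34 at 1.67, Mcpt8 at 1.54 and Fcer1a at 0.62. Their summed level was 142 to 162 FPKM in WT and 161 to 169 FPKM in PGRN KO libraries, nearly all of it Hdc, which was not called (0.01), and the mast cell proteases Cma1 and Tpsb2 were at 0. For eosinophils 3 of 5 were called higher (Prg2 at 1.26, Siglecf at 0.44, Epx at 0.37) and Ear6 lower (-0.33), with summed levels of 10.9 to 12.6 and 12.3 to 15.8 FPKM. For B and plasma cells 6 of 7 were called higher, led by Jchain (1.66) and Mzb1 (1.54), summing to between 44.0 and 47.8 FPKM in WT libraries against between 93.8 and 108.7 FPKM in PGRN KO libraries, with Pax5 at 0. For erythroid cells and platelets 4 of 6 were called higher, led by Hba-a1 (1.04) and Hbb-bs (0.81), at 1.66 to 3.59 against 6.93 to 7.56 FPKM. Monocyte and macrophage markers were mixed, with 2 of 8 higher (Vcam1 0.69, Ly6c2 0.37) and others lower, among them Ccr2 (-0.82) and F13a1 (-0.46), and C1qa, C1qb and C1qc had at most 2 fragments in a genotype. Their sum was 544 to 550 FPKM in WT and 581 to 728 FPKM in PGRN KO libraries. Most of it was Ly6c2, at 396 to 405 FPKM in WT and 442 to 582 FPKM in PGRN KO libraries. Of T and NK cell markers 2 were tested and limma called 0, as did voom and an unadjusted p under 0.05 (Cd3d -0.15, Trac 0.10), their sum was at most 1.09 FPKM in any library, and Cd3e and Cd3g were at 0.

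The surroundings of the 9 genes on the chromosomes were examined as well, since Elane and Prtn3 sit side by side. Of 43 other tested genes within 100 kb of one of the 9, limma called 7 higher and 7 lower, beside 7.94% and 9.95% of all genes tested, and their median log2 difference was 0.03. With plain fragment totals 12 were higher and 5 lower. Around the members that fell, 3 of 5 tested neighbours of Srgn (median -0.30) and 2 of 4 of Slpi (median -0.32) were called lower, and 0 of 6 of Cd63 were called by limma, at an unadjusted p under 0.05 or by voom. The count and median for Slpi include Mir7678, which lies inside Slpi and may share its reads. Around the members that rose, 3 of 13 were called higher for Elane, 3 of 14 for Prtn3 (the same genes), 1 of 6 for Mpo and 1 of 2 for Ctsg. For Ms4a3 2 of 5 were called higher and 2 lower. Near Elane and Prtn3 the genes called higher included Prss57, 83.5 kb from Prtn3, and Gm19810, a pseudogene 0.497 kb beyond Elane (0.75), which rested on 3 fragments in WT and 15 in PGRN KO libraries. The housekeeping splicing gene Ptbp1, 9.71 kb from Prtn3 on the other side, was not called (0.02, 23.4 and 23.7 FPKM). Plppr3, the overlapping gene described above, rose by 0.57. Ctsg has the basophil protease gene Mcpt8 at 14.6 kb (1.54) and no tested gene within 100 kb on its other side. Mpo lies between Tspoap1 (0.29, adjusted p = 0.0692, not called) and the eosinophil peroxidase gene Epx, 59.6 kb away (0.37), whose WT level was 0.04 FPKM. Around Ms4a3, which stands in a cluster of related genes, Oosp1 rose by 0.72 while Ms4a6d and Ms4a6b fell by 0.89 and 0.72.

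**Figure D5:**
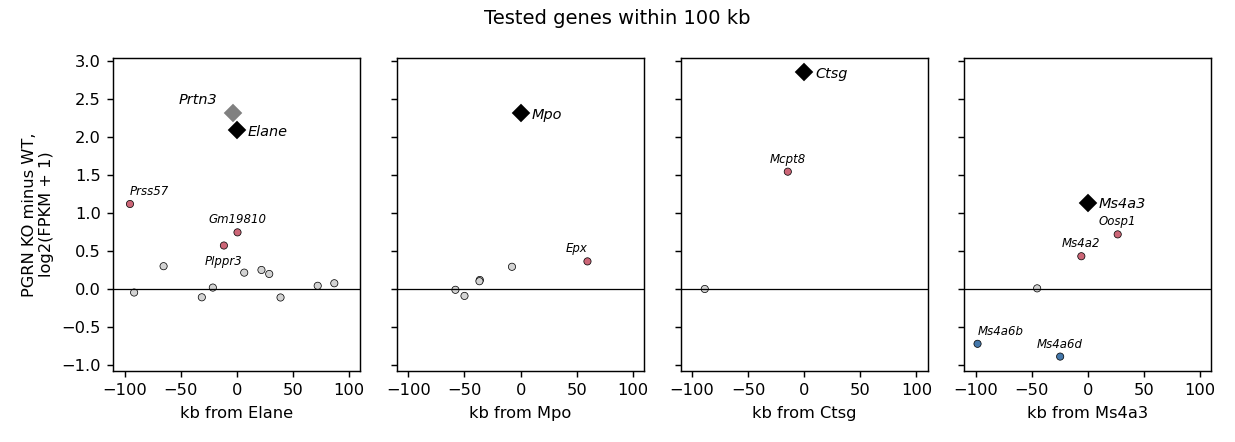
Log2 difference between PGRN KO and WT libraries for each tested gene within 100 kb of Elane, Mpo, Ctsg and Ms4a3 against its distance in kb (diamonds, the named gene and, beside Elane, Prtn3; circles, its neighbours, coloured red or blue where called higher or lower and grey where not called). Gm19810 (0.75), Plppr3 (0.57) and Mcpt8 (1.54) are called higher and Ptbp1 (0.02) is not called, while Elane, Prtn3, Mpo and Ctsg lie above 2. The scale is log2(FPKM + 1), which shrinks differences of low genes such as Mcpt8.

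The genes whose pattern over the 6 libraries was most like the mean of the 4 enzymes were sought among 9070 tested genes with a mean of at least 1 FPKM. Immunoglobulin segments, which make up most of the 74 genes that rose by 2 or more on the log2 scale, were left out. Likeness was the root mean square distance between centred log2(FPKM + 1) values. The enzymes themselves lay at 0.042 (Prtn3), 0.060 (Mpo), 0.15 (Elane) and 0.24 (Ctsg), and Ms4a3 at 0.64. The closest other genes were Prss34 (0.39), a basophil protease, Jchain (0.39), the joining chain of secreted antibodies, Stfa2 (0.40), a stefin A cysteine protease inhibitor, the pseudogene Gm8129 (0.44) and Mzb1 (0.45), a chaperone of plasma cells. Stfa2 was at 13.6, 10.3 and 9.79 FPKM in WT and 33.3, 37.2 and 40.9 FPKM in PGRN KO libraries. Its family has near-identical copies, among which reads can be split in counting. The enzymes' own distances are no comparison, since they make up the mean. With 3 libraries against 3, the distance mostly follows the size of the difference between genotypes, which was 1.54 to 1.67 (log2) for these closest genes. It therefore shows no shared pattern beyond higher levels in PGRN KO libraries.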

How the data were processed

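RNA from 3 WT and 3 PGRN KO cultures was sequenced as paired ends after poly-T selection. The submitters' processing notes name CASAVA, HISAT2 2.0.5, featureCounts 1.5.0-p3, DESeq2 1.20.0 and mm10/GRCm38. The authors deposited FPKM for 54532 genes, with 31614 at 0 in every library. In each library FPKM times gene length gave whole multiples of one step (within 0.05 fragments for 100% of values), from which fragments were recovered. The library sizes behind the FPKM were not the fragment sums, the scaling differing by 0.12 (log2) between genotypes, and median-of-ratios scaling left the values as deposited. Neither exon structure nor reads were used.

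Genes with a mean of at least 0.1 FPKM (14807) were tested as log2(FPKM + 1), with 1 as pseudocount, which understates changes of low genes, by limma 3.58.1 in R 4.3.3 (eBayes with trend, two-sided, Benjamini-Hochberg, genotype the only term). A gene was called at adjusted p under 0.05. The fit was tested on simulated data. Python 3.11.15, numpy 2.4.6, pandas 2.3.3 and scipy 1.17.1 did the rest. No replicate numbers are shared between genotypes. The number of sample columns left unused was 0. Gene positions were those in the table, the same for all 9 genes in GENCODE M21, and promoter sequences came from RefSeq.

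The 9 genes and the 14 lists of other genes were chosen with earlier results of these data known. From each list the text names every gene called among its first 5 by absolute log2 difference and the 2 with the highest mean FPKM, and of genes within 100 kb the called ones, up to 6, and the nearest tested gene on each side of an enzyme. Other genes (Ctsc, Gfi1, Cebpd, Cd177, Serpinb1b, Serpinb1c, Aurkb, Plk1, Ccnb1, Cdc20, Hdc, C1qa to C1qc and Rpl30-ps10) were named after their values were seen. One gene that this rule picks is not reported here. Alternatives were other pseudocounts, filters, scalings and moderation, voom on fragments, protein-coding genes alone, and each library left out.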

Additional observations from a re-analysis of the deposited data

How the results depend on the processing

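Elane, Prtn3, Ctsg, Mpo, Ms4a3 and Slpi kept their direction and their call in all 17 alternatives, with log2 differences of 2.05 to 2.23, 2.27 to 2.47, 2.79 to 3.05, 2.26 to 2.53, 1.10 to 1.31 and -0.37 to -0.20. Serpinb1a kept its direction (0.20 to 0.37) and was called in 10 of 17, Cd63 (-0.35 to -0.18) in 11 and Srgn (-0.39 to -0.20) in 14. The filters and the moderation settings use the same values, so they can change a call but not a direction. Median-of-ratios scaling likewise left the values as deposited. Of the 9 genes, 1 was called lower under quantile normalization, and 1 to 3 when a library was left out (1, Slpi, without WT 2). With a library left out, 1322 to 2161 genes were called over all genes (540 to 913 higher, 775 to 1248 lower), against 2648 with all libraries. These are counts in each fit, and their overlap with the 2648 was not examined. Such fits called 5 to 9 higher and 6 to 12 lower in the pathway lists (12 and 11 with all libraries). In the stage lists they called 12 to 18 higher (21). In the cell type lists they called 11 to 15 higher and 2 to 6 lower (19 and 6), and within 100 kb 2 to 7 higher and 4 to 6 lower (7 and 7). Fewer samples enter these fits. Voom on recovered fragments moved the median of all genes by 0.12 on the log2 scale and called 4238 genes, 2986 of them higher, with 22 higher and 5 lower in the pathway lists, 33 higher in the stage lists and 13 higher within 100 kb. Relative to that median, voom gave 2.10 for Elane, 2.41 for Mpo, 2.93 for Ctsg and 2.34 for Prtn3, and -0.36 for Slpi. Scaling by plain fragment totals called 2149 genes higher and 934 lower, with 5 lower in the pathway lists and 12 higher within 100 kb. A minimum mean of 1 FPKM, under which fewer genes are tested, left 10 higher in the cell type lists and 4 within 100 kb, and testing every gene above 0 also left 4. The Mpo over Prtn3 difference, not called, turned from 0.07 to -0.0030 when 1 was added to both FPKM values. Counting limits the low neighbours and marker genes more than the 9 genes, whose rarest group, Ctsg in WT, held 726 fragments.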
